A study of Homo sapiens with 27 samples.

Results

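The report is about 46 genes that make ribosomes, among them RBM28, in REH cells. REH is a cell line from a human B-cell precursor acute lymphoblastic leukemia and carries the ETV6/RUNX1 fusion. The list was set around RBM28, which was chosen by its own measured value: it was far lower with one LNA GapmeR against lnc-RTN4R-1 than with the other. The question was whether the 45 other genes of the list, called partners below, responded with it. All 46 were matched to 1 identifier each among the 60619 in every count table, and all 46 passed the filter on low counts that left 16268 genes for testing.

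Cells were left in medium (n = 2) or were given 10 µM of an oligonucleotide, and RNA was taken after 72 h. GapmeRs are single DNA strands flanked by locked nucleic acid, and RNase H cuts the RNA they pair with. Per the methods of the study it was taken up passively, without a transfection reagent. The non-targeting control (NTC) had 3 samples. Both GapmeRs against lnc-RTN4R-1 and both against lnc-TIMM21-5 had 3 samples each. lnc-NKX2-3-1 GapmeR1 and lnc-ASTN1-1 GapmeR2 had 2 each, and the other GapmeR against each of these lncRNAs had 3. All 27 samples are thus of the same line, and the 5 samples of medium and NTC are the controls of every GapmeR. Medium and lnc-NKX2-3-1 GapmeR1 had replicates 1 and 2 here, and lnc-ASTN1-1 GapmeR2 replicates 1 and 3.

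Ribosomes are assembled in the nucleolus. RNA polymerase I copies the ribosomal DNA into a long precursor, small nucleolar ribonucleoproteins (snoRNPs) modify it, and large sets of assembly factors cut and fold it into the 40S and 60S subunits. RBM28 is a nucleolar RNA-binding protein whose yeast relative, Nop4, is needed for the 60S subunit. By role, the list holds 6 genes of the polymerase I machinery and its regulation, 7 of snoRNPs, 15 of 40S assembly, 14 of 60S assembly with RBM28 among them, and 4 abundant nucleolar proteins. Rapidly dividing leukemia cells are known for high ribosome production, and MYC, which is among the 6, is a known driver of it.

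The samples had 14627110 to 22750945 counts assigned to genes. Of the B-cell precursor markers, PAX5 was at 654 to 823 CPM (counts scaled to library size) and CD79A at 501 to 785 CPM in all 27 samples, while VPREB1 was at 0 in every sample. Markers of T cells and monocytes were near 0 (CD3E at most 0.535 CPM, CD14 at most 0.923 CPM), and MPO was at 79.4 to 445 CPM. lnc-RTN4R-1 itself was at 5.85 ± 0.698 CPM (SD, n = 3) with its GapmeR1 and 4.69 ± 1.15 CPM (SD, n = 3) with its GapmeR2, against 18.3 to 24.4 CPM in the controls. In the first principal component of all genes tested, which held 22.6% of the variance, the replicate number explained 75.7%. Replicates were done on different days per the methods, so results are given from a fit without the replicate number and, where it moved a call or a count, also from a fit with the replicate number as a block.

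The sequences of both lnc-RTN4R-1 GapmeRs come first, with the places where their longest runs paired with RBM28. RBM28 (ENSG00000106344) lies on the minus strand of chromosome 7, from 128297685 to 128343908 (GRCh38, GENCODE v44). The sequences below run 5′ to 3′. In the sites, read from the strand of the transcript, capitals mark the bases that pair with the GapmeR.
lnc-RTN4R-1 GapmeR1: gcattcatgggttaag
lnc-RTN4R-1 GapmeR2: tgctgagacatctagg
Site of GapmeR1 in lnc-RTN4R-1: CTTAACCCATGAATGC
Site of GapmeR1 in RBM28: gggAACCCATGAATGC
Longest run of GapmeR2 in RBM28: tggcGcTGTCTCAGCt

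The first of these sites is a full match of 16 bases in an exon of lnc-RTN4R-1 (LINC02891, chr22:20200478-20200493, minus strand). The site in RBM28 lay in an exon, in the untranslated part of the canonical transcript (chr7:128308660-128308675, minus strand). There, 13 bases in a row paired with GapmeR1, and A14C, A15C and G16C, counted from the 5′ end of the GapmeR, give its 3 bases that did not (the GapmeR base first, then the base that it would need to pair). A run as long was found in the spans of 48 of 16024 genes (0.3%). Counted by mismatches over the full length instead, 2110 of the 16024 genes (13.2%) held a site with 3 or fewer. Spans include introns, and gene length was not accounted for. The longest run of GapmeR2 in RBM28 had 9 bases, also in an untranslated part (chr7:128309578-128309593, minus strand), and 55.8% of the genes held one as long. Of the 47 genes other than RBM28 with a run of at least 13 bases for GapmeR1, 15 were lower and 1 higher with it, or 34% against the 2.32% of all genes tested that were called changed in that comparison. LINC02891, the intended target, is 1 of the 47 and of the 15 lower ones. The limit of 13 bases was the run in RBM28 itself. At a limit of 14 bases, 4 of 15 genes were lower and none higher, or 26.7%. A pairing run is a description of the sequence, and whether RNase H cut RBM28 RNA or that of the other genes was not tested.

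RBM28 stood at 20.7, 22.5 and 19.5 CPM in the 3 samples of lnc-RTN4R-1 GapmeR1. It was at 82.2 and 88.7 CPM in medium and at 78.4, 81.2 and 82.2 CPM in NTC. These values are the ones that chose the gene, and they are given as a description with no test. With lnc-RTN4R-1 GapmeR2 it was at 80.1, 83.0 and 78.2 CPM, and the samples of both GapmeRs did not overlap. The log2 fold change of RBM28 was -1.98 (standard error 0.0685) for GapmeR1 against the controls, or 25.4% of their level, and -1.94 (standard error 0.0732) for GapmeR1 against GapmeR2. The raw counts behind the 3 low samples were 395, 471 and 377, against 1127 to 1816 in the other 24, so depth did not limit this value. In bulk RNA, fewer cells that express a gene and less RNA per cell cannot be told apart.

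In the order of the group means, medium was highest at 85.5 ± 4.61 CPM (SD, n = 2) and lnc-RTN4R-1 GapmeR1 lowest at 20.9 ± 1.47 CPM (SD, n = 3). The other 8 groups lay between 77.3 ± 1.22 CPM (SD, n = 3, lnc-ASTN1-1 GapmeR1) and 80.6 ± 2.01 CPM (SD, n = 3, NTC). Neighbours among these 8 differed by less than their SDs. Against the controls, the log2 fold change of RBM28 with the other 7 GapmeRs ran from -0.09 (standard error 0.0614, lnc-ASTN1-1 GapmeR1) to -0.04 (standard error 0.0612, lnc-RTN4R-1 GapmeR2), and none of the 7 passed the edgeR test (adjusted p = 0.504 to 1).

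**Figure D1:**
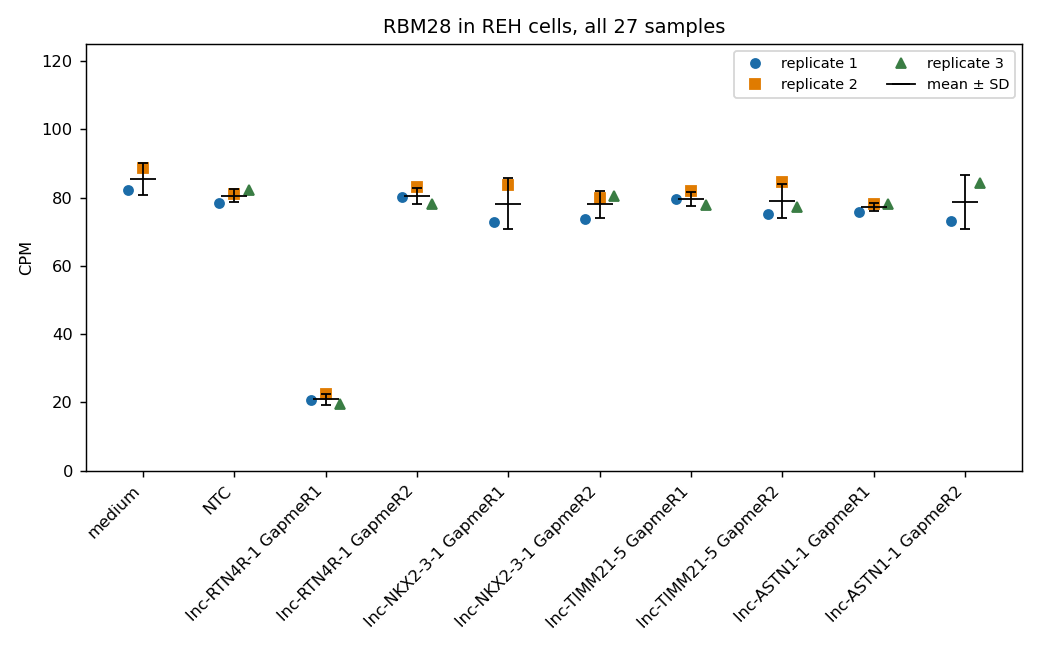
RBM28 in CPM (y axis, from 0) in each of the 27 samples, by group (x axis); the symbol gives the replicate number, and the bar the mean ± SD of the group. The 3 samples of lnc-RTN4R-1 GapmeR1 sit between 19.5 and 22.5 CPM, and the other 24 at 72.9 CPM or above.

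With lnc-RTN4R-1 GapmeR1, with which RBM28 was at 25.4% of the control level, few partners passed the test. Of the 45 partners, 1 was called lower and none higher against the controls (edgeR quasi-likelihood test, Benjamini-Hochberg adjusted p under 0.05), or 2.22%, where 2.32% of all genes tested were called. Their median log2 fold change was -0.05, with a range from -0.27 to 0.09, and the median over all genes tested was 0. With the replicate number as a block, 4 partners were lower and none higher, or 8.89% of the 45, which is near the 8.8% of all genes tested. By DESeq2, 2 of the 46 were called, RBM28 included. The 4 were DDX10, NAT10, PES1 and NPM1, which belong to 3 of the 5 role groups. Over the other 7 GapmeRs, with which RBM28 was not called, the partners' median ran from -0.08 to 0.11 without the block. The lowest was with lnc-NKX2-3-1 GapmeR2 and the highest with lnc-NKX2-3-1 GapmeR1. With lnc-TIMM21-5 GapmeR1 it was -0.055, also below that with lnc-RTN4R-1 GapmeR1.

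DDX10, a helicase of 18S rRNA processing, was the partner called in both fits. It was at 39.6, 39.3 and 37.1 CPM with GapmeR1 and at 48.1 and 46.6 CPM in medium and 47.2, 46.7 and 44 CPM in NTC. All 3 values lay below those of the other 24 samples, which ran from 42.1 to 50.7 CPM. Its log2 difference from the controls was -0.27 (standard error 0.0576, adjusted p by edgeR 0.00876), and 83.1% of the control level remained. The call was lost in a fit of the compared groups alone (adjusted p = 0.0773), with NTC as the only control (0.0537), with no filter on low counts (0.128) and without lnc-RTN4R-1 GapmeR1 replicate 3 (0.0856). The log2 fold change in these 4 fits stayed at -0.25 to -0.27 in the first 3 and was -0.24 in the last. The longest run of GapmeR1 in DDX10 had 10 bases, in a coding exon (chr11:108679410-108679425, plus strand, CTgAtaCCATGAATGC, capitals pairing), and 17.2% of the genes held a run as long.

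No other partner was called in the fit without the block, and the members with the largest change in each role group are given here. POLR1B, the second largest subunit of polymerase I, changed by -0.11 in log2 (standard error 0.106). FBL, the methyltransferase of box C/D snoRNPs, had -0.06 (standard error 0.117). PES1, of the PeBoW complex of 60S assembly, had -0.17 (standard error 0.0881, adjusted p = 0.539, or 0.0429 with the block), and the other subunits of that complex, BOP1 and WDR12, were not called in either fit. NPM1 (nucleophosmin), a nucleolar chaperone, had -0.15 (standard error 0.11, adjusted p = 0.786, or 0.0371 with the block). NAT10, the acetyltransferase of 18S rRNA, had -0.17 and an adjusted p of 0.017 with the block. The other 13 genes of 60S assembly, those that share the subunit with RBM28, lay at -0.17 to 0.03.

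With lnc-RTN4R-1 GapmeR2, which left RBM28 at the level of the controls, 1 partner was higher and none lower in the fit without the block, against 9.56% of all genes tested that were called. With the block, 17 were higher and 4 lower, or 46.7% of the partners, against 26.3% of all genes tested; DESeq2 without the block called 3. The median log2 fold change of the partners was 0.07 without and 0.08 with the block. All 7 snoRNP genes had a positive fold change, and 5 of them were called higher with the block: FBL, NOP56, DKC1, NHP2 and NOLC1. In 60S assembly 7 genes were higher with the block and WDR12 lower, and in 40S assembly NOC4L was higher while UTP4, HEATR1 and RRP12 were lower.

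UBTF, the upstream binding factor that opens ribosomal DNA for polymerase I, was the partner called in both fits. It was at 254, 261 and 234 CPM with GapmeR2, at 210 and 228 CPM in medium and at 196, 207 and 206 CPM in NTC. Each of the 3 samples lay above all 5 controls. In log2 it was higher by 0.255 (standard error 0.0624, adjusted p by edgeR 0.00888, or 1.77e-06 with the block), and the call was lost without lnc-RTN4R-1 GapmeR2 replicate 2 (0.0709). HEATR1, of the small subunit processome, went the other way: it was at 112, 123 and 88.6 CPM with GapmeR2, at 130 and 165 CPM in medium and at 128, 156 and 126 CPM in NTC. Its 3 samples were below all 5 controls. In log2 the difference was -0.39 (standard error 0.125) with an adjusted p of 0.0522 without and 3.83e-07 with the block. The longest run of GapmeR2 in HEATR1 had 10 bases, in a coding exon (chr1:236564526-236564541, minus strand, CCTtcATGTCTCAGCt, capitals pairing), as in 22.1% of the genes.

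Other partners that reached the call with the block only were NOP56, a core protein of box C/D snoRNPs (log2 fold change 0.21 without the block, adjusted p = 0.0719, and 1.51e-06 with it), and NOP16, of 60S assembly (0.26, adjusted p = 0.139, and 0.000141 with it). BOP1 had 0.23 (adjusted p = 0.191, and 0.000798 with the block). MYC had 0.195 without the block (adjusted p = 0.514) and 0.23 with it (0.000225). GNL3 (nucleostemin) had 0.15 (adjusted p = 0.16 and 0.00576).

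**Figure D2:**
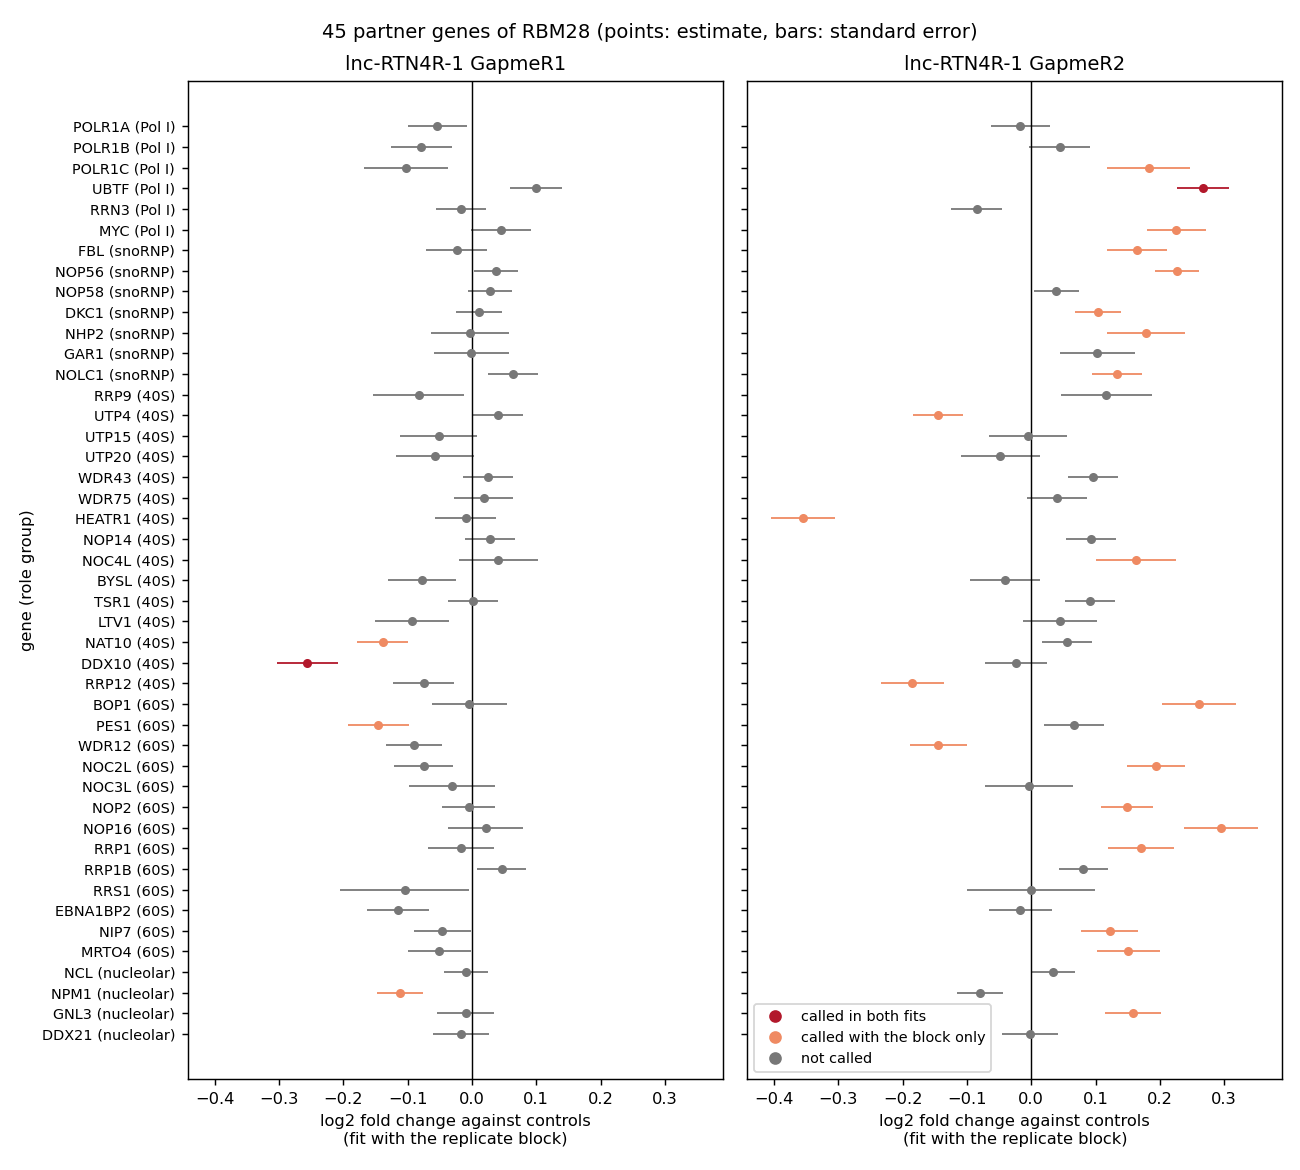
log2 fold change of the 45 partners against the controls (x axis) with lnc-RTN4R-1 GapmeR1 (left) and GapmeR2 (right), from the fit with the replicate block; points are estimates, bars standard errors, colours the calls, and genes (y axis) are in the order of their roles. With GapmeR1 4 partners are coloured, all lower, and with GapmeR2 17 are higher and 4 lower, against the same 5 controls.

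Against the 5 controls, the 6 samples of both lnc-RTN4R-1 GapmeRs together gave a log2 fold change of -1.01 for RBM28, the mean of 3 low and 3 control-like samples, and no partner was called (4.66% of all genes tested were). At an unadjusted p under 0.05 there were 5 of the 46, RBM28 included, beside 15.7% of all genes tested, and DESeq2 called 2. With the block, 5 partners were higher and 5 lower, or 22.2% of the 45, against 15.6% of all genes tested. UBTF (0.17), MYC (0.11), NOP56 (0.11), NOLC1 (0.07) and NOP16 (0.13, without the block) were the higher ones. HEATR1 (-0.22), RRP12 (-0.16), DDX10 (-0.15), NPM1 (-0.13) and WDR12 (-0.13, all without the block) were the lower ones.

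The direct contrast of GapmeR1 with GapmeR2 is the one on which RBM28 was selected, so no p-value is given for it. The fit called 2 of the 45 partners, DDX10 and POLR1C, beside 9.09% of all genes tested, and with the block 19 of them, beside 26.3%. With single libraries of this contrast left out, the call of POLR1C was lost in all 6 fits and that of DDX10 in 3 of the 6. The partners ran from -0.285 (POLR1C) to 0.34 (HEATR1) in log2 fold change. Nothing is read from these counts.

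With lnc-NKX2-3-1 GapmeR1, a GapmeR against another lncRNA that left RBM28 at 72.9 and 83.6 CPM, 7 of the 45 partners were higher and 1 lower. These 8 were 17.4% of the 46 genes, and 19.7% of all genes tested were called (8.14% called higher). With the block, 16 were higher and 3 lower, or 41.3% of the 46 genes, against 35.8% of all genes tested. With both directions summed, the share of members called was thus near the background in both fits. Most called members were higher in both fits. Of the 16268 genes tested, 1324 were higher and 1879 lower, or 2864 and 2966 with the block. The median log2 fold change of the 46 genes was 0.11, or 0.07 with the block, and about 0 over all genes tested in both fits.

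The gene that moved most was GNL3, which encodes nucleostemin, a nucleolar GTPase of dividing cells. It was at 38.6 and 43.9 CPM with lnc-NKX2-3-1 GapmeR1 and at 82.9 and 89.2 CPM in medium and 81.9, 82.0 and 77.9 CPM in NTC. Every other sample of the 27 was at 75.6 CPM or above. It changed by -1.005 in log2 (standard error 0.0774, edgeR adjusted p = 5.05e-10), which left 49.8% of the control level. It ran from -1.10 to -0.90 with single libraries left out. lnc-NKX2-3-1 GapmeR1 and its longest run in GNL3 are shown beside each other because no other member but RBM28 moved by more than 0.5 in log2 with a GapmeR.
lnc-NKX2-3-1 GapmeR1: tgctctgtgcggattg
Longest run in GNL3: aAcaatGCACAGAGCA

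The run in GNL3 had 10 bases in a coding exon (chr3:52693523-52693538, plus strand, capitals pairing), and 12.5% of the genes held one as long. Counted by mismatches over the full length, the best site in GNL3 had 5, and 84.5% of the genes held one with as few. The 7 partners that were higher had smaller changes, from 0.24 to 0.30. UBTF was at 245 and 272 CPM, above all controls (196 to 228 CPM), and higher by 0.30 in log2 (standard error 0.0708, adjusted p = 0.00313). NOP2, the methyltransferase of 28S rRNA, had 0.285 (standard error 0.0818, adjusted p = 0.0153). UTP15 of the small subunit processome had 0.27 (adjusted p = 0.0218), TSR1 of late 40S maturation 0.27 (adjusted p = 0.0236), and the snoRNP core proteins NOP56 and NOP58 had 0.25 (adjusted p = 0.0357) and 0.24 (adjusted p = 0.00591). WDR75, the seventh, had 0.24 (adjusted p = 0.0376). The values of the list moved with single libraries. Its median was 0.04 without lnc-NKX2-3-1 GapmeR1 replicate 2 and 0.19 without its replicate 1. Each of these 2 fits left a single sample in that group, so no calls are given for them. Without NTC replicate 3, 5 of the 46 genes were called, and the share of all genes tested was not recorded for that fit.

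NCL (nucleolin), the most abundant of the list, was at 1670 and 1700 CPM with lnc-NKX2-3-1 GapmeR1 and at 1120 to 1480 CPM in the controls. Its log2 fold change of 0.29 had an adjusted p of 0.14 without the block and 5.57e-06 with it. Other members that were higher with the block only were POLR1C, DKC1, NOLC1, NOP14, LTV1, RRP1, RRP1B and MRTO4, and those lower with the block only were NHP2 and EBNA1BP2. The second GapmeR against the same lncRNA did not show these values. With lnc-NKX2-3-1 GapmeR2 no member was called (0.0307% of all genes tested were), none had an unadjusted p under 0.05 by edgeR (6.12% of all genes tested had one), and DESeq2 called none. With the block NPM1 was lower (log2 fold change -0.15, adjusted p = 0.0125), 1 of 46 genes against 3.17% of all genes tested. In a comparison of both lnc-NKX2-3-1 GapmeRs that was added after the values had been seen, 8 members were higher and 1 lower with GapmeR1, against 17.8% of all genes tested, and 22 of 46 were called with the block, against 33.4%.

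**Figure D3:**
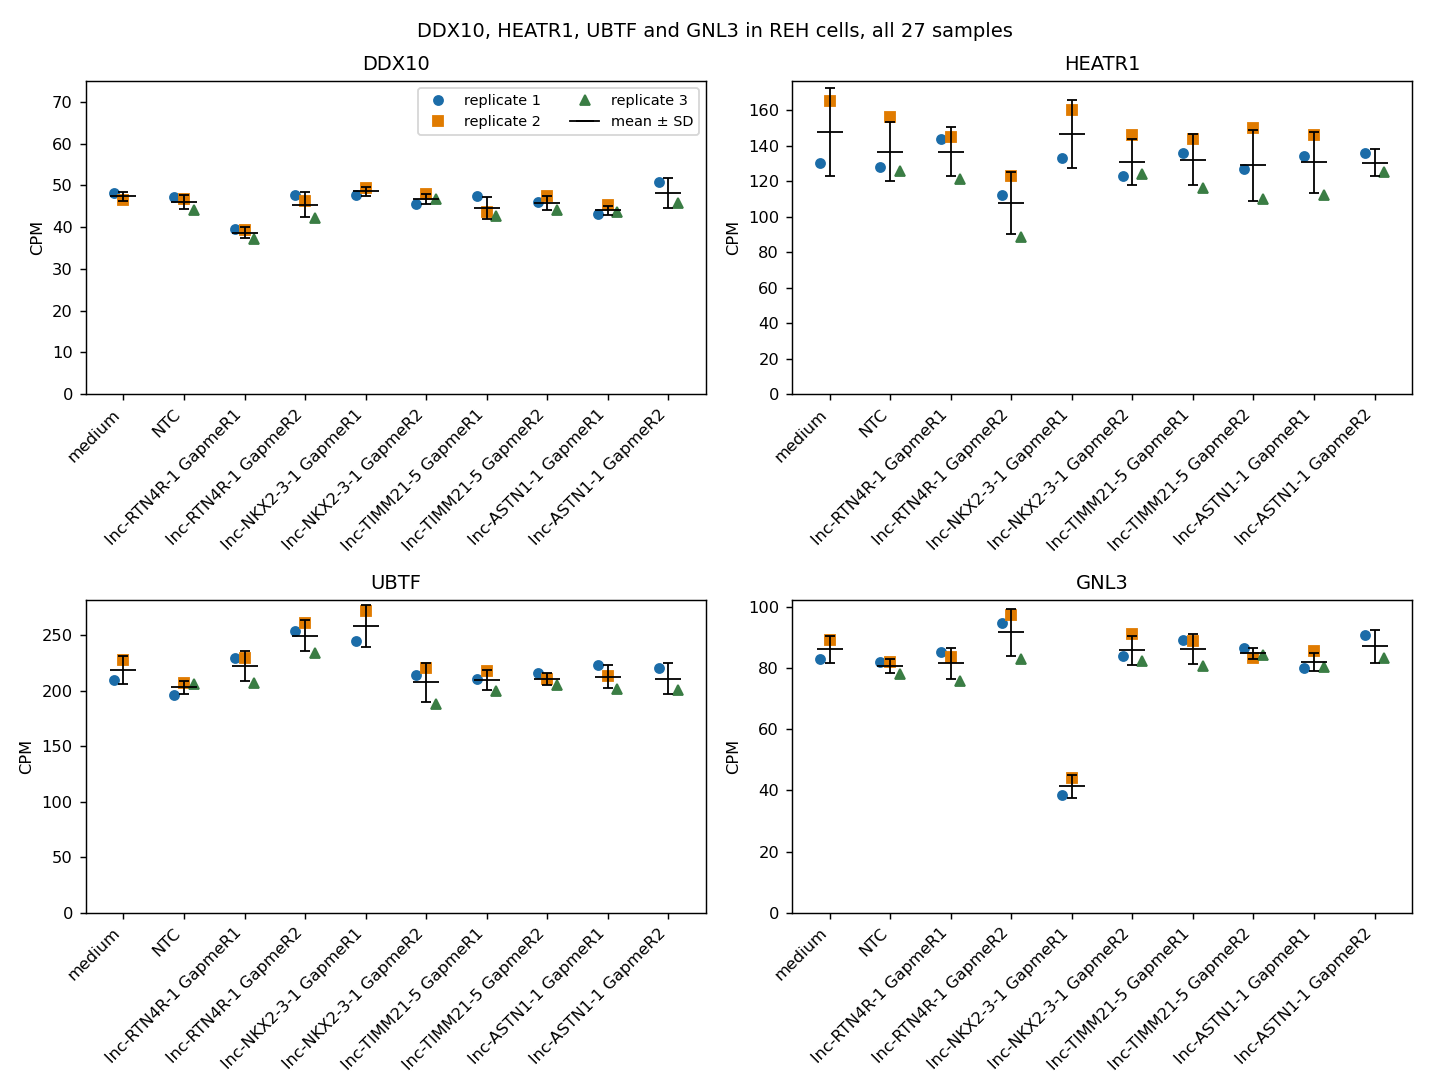
CPM (y axes, from 0) of DDX10, HEATR1, UBTF and GNL3 in each of the 27 samples, by group (x axes); the symbol gives the replicate number and the bar the mean ± SD of the group. DDX10 is lowest with lnc-RTN4R-1 GapmeR1, HEATR1 with lnc-RTN4R-1 GapmeR2 and GNL3 with lnc-NKX2-3-1 GapmeR1, where it is at 38.6 and 43.9 CPM.

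With the 4 GapmeRs against lnc-TIMM21-5 and lnc-ASTN1-1 few genes of any kind were called. lnc-TIMM21-5 was low already in medium (mean 1.63 CPM) and NTC (1.53 CPM), and at 0.289 and 0.206 CPM with its GapmeR1 and GapmeR2. lnc-ASTN1-1 was at 10.2 and 13.2 CPM with its GapmeR1 and GapmeR2, against 25.9 CPM in medium and 25 CPM in NTC. No member was called with lnc-TIMM21-5 GapmeR1 (0.209% of all genes tested were), lnc-TIMM21-5 GapmeR2 (0.0676%), lnc-ASTN1-1 GapmeR1 (1.2%) or lnc-ASTN1-1 GapmeR2 (0.0184%). By edgeR none of the 46 had an unadjusted p under 0.05 in any of these 4 comparisons, where 2.91 to 7.55% of all genes tested had one, and DESeq2 called 0. The largest changes were EBNA1BP2 of 60S assembly with -0.16 (standard error 0.132, lnc-TIMM21-5 GapmeR1), POLR1C with -0.13 (standard error 0.0808, lnc-TIMM21-5 GapmeR2), and BYSL of late 40S maturation with -0.20 (standard error 0.102) and -0.18 (standard error 0.117) for both lnc-ASTN1-1 GapmeRs. With the block BYSL was lower with lnc-ASTN1-1 GapmeR1 (adjusted p = 0.0478), 1 of 46 genes against 4.77% of all genes tested, and no other member was called with these 4 GapmeRs. Over all 8 single GapmeRs, 36 of the 46 genes were called with none, or 10 with the block. Of 368 pairs of member and GapmeR, 11 were called (2.99%, against 4.14% over all genes tested), or 47 with the block (12.8%, against 10.3%). Both counts include RBM28 with lnc-RTN4R-1 GapmeR1, the value that chose the list. RBM28 and GNL3 made up the 2 pairs with an absolute log2 fold change over 0.5.

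NTC against medium gives the change with an oligonucleotide that has no intended target. All 46 genes had a lower estimate with NTC, with a median log2 fold change of -0.14 and a range from -0.30 (GAR1, a core protein of box H/ACA snoRNPs, standard error 0.141) to -0.01. None was called, and 0% of all genes tested were. The share of all genes tested with a lower estimate is not given beside this count. Relative to each gene's mean over all samples, the median over all genes tested was 0.009 and 0.013 (log2 CPM) in medium. It was 0.009 to 0.013 in NTC. By edgeR 2 members had an unadjusted p under 0.05, as had 3.53% of all genes tested, and DESeq2 called 0. NTC had a replicate 3 and medium did not, and with the block the median was -0.09, with 44 of 46 estimates below 0 and again no call.

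**Figure D4:**
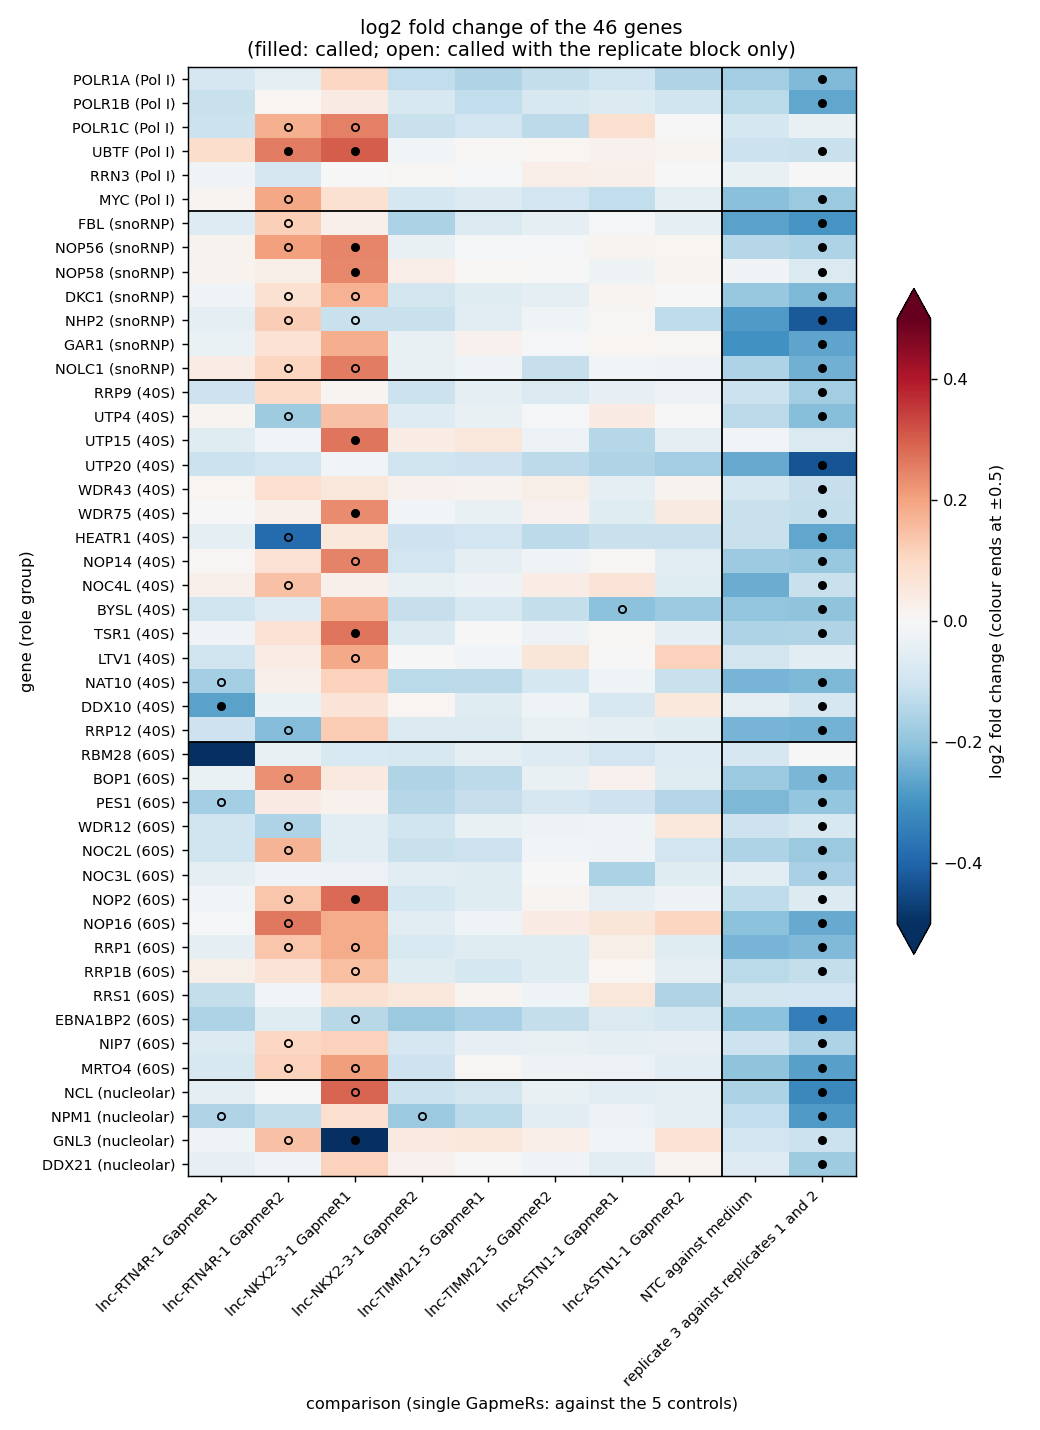
log2 fold change (colour, ends at ±0.5) of the 46 genes (rows, by role) in 10 comparisons (columns), without the replicate block except in the last column, which needs it; filled circles mark calls, open circles calls with the block only, and RBM28 carries no mark because it was chosen by its value. RBM28 (-1.98) and GNL3 (-1.005) go past the ends of the colours, and the last column holds the most calls, 40 of 46.

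The replicate number went with the level of most of the list. In replicate 3 against replicates 1 and 2, 40 of the 46 genes were lower and none higher (87%), where 54.1% of all genes tested were called and 26% were lower. The median log2 fold change of the members was -0.19, against 0.01 over all genes tested. Relative to their mean over all samples, the median of the 46 genes was -0.21 to -0.07 (log2 CPM) in the 8 samples of replicate 3, -0.02 to 0.10 in the 10 of replicate 1 and 0.04 to 0.22 in the 9 of replicate 2. No sample of replicate 3 overlapped with the others. Over all genes tested, that median was 0.008 to 0.015 in the samples of replicate 3. Within each of the 8 groups that had a replicate 3, 41 to 45 of the 46 genes were lower in it than in the mean of the other replicates of that group. How many of all genes tested were lower within each group was not counted, so this count has no background beside it.

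UTP20 of the small subunit processome fell by 0.43 on the log2 scale (standard error 0.0377, adjusted p = 1.77e-11), and NHP2, a core protein of box H/ACA snoRNPs, by 0.42 (standard error 0.0374, adjusted p = 3.87e-11). EBNA1BP2 fell by 0.34, NCL by 0.32 and FBL by 0.30. In UTP20 the samples of replicate 3 ran from 51.7 to 61.9 CPM and those of replicates 1 and 2 from 64.8 to 93.4 CPM, with no overlap. All 7 snoRNP genes and all 4 nucleolar proteins were lower. The 6 that were not called were RBM28 (0.00, standard error 0.0274), RRN3 (0.00), the initiation factor of polymerase I, POLR1C (-0.04), LTV1 (-0.06), UTP15 (-0.07) and RRS1 (-0.09).

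**Figure D5:**
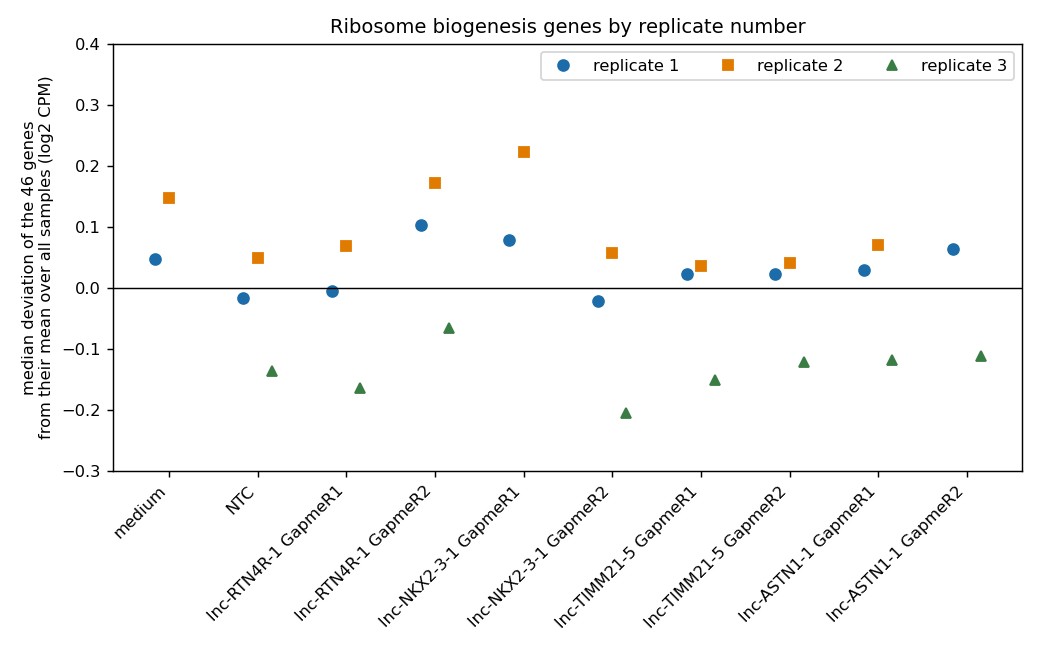
Median over the 46 genes of the difference between a sample's log2 CPM and the gene's mean over all 27 samples (y axis), by group (x axis), with the symbol giving the replicate number. All 8 samples of replicate 3 lie at -0.07 or below and all others at -0.02 or above.

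The replicate numbers bear on comparisons whose groups lack one of them. For lnc-ASTN1-1 GapmeR2, with replicates 1 and 3 only, the median of the list was -0.05 without the block and 0.03 with it. For lnc-NKX2-3-1 GapmeR1, with replicates 1 and 2 only, it was 0.11 without and 0.07 with the block.

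In length-scaled units, RPKM over the union of a gene's exons, NCL was highest in the controls at 154 ± 16.3 (SD, n = 5), followed by NPM1 at 109 ± 12.8 and NOLC1 at 71.9 ± 6.06. The snoRNP proteins FBL, NOP58, NOP56 and NHP2 came next, between 52.4 and 68.9 RPKM. RBM28, at 5.2 ± 0.24 RPKM (SD, n = 5), was the fourth lowest of the 46, above NOC3L (4.16), POLR1C (4.02) and DDX10 (2.58). The scale depends on the length of the union, which was 18059 bases for DDX10 and 15866 bases for RBM28. Across the 27 samples the highest CPM was 4.54 times the lowest for RBM28 and 2.52 times for GNL3, and 1.17 (RRN3) to 1.87 (NHP2) times for the other 44.

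A further 132 ribosome biogenesis genes, listed by role, were also counted. With lnc-RTN4R-1 GapmeR1, of the 131 that were tested, 1 was lower and none higher, against 2.32% of all genes tested: ZNHIT6, an assembly factor of box C/D snoRNPs (-0.51 in log2, standard error 0.0782, adjusted p = 0.000231). With lnc-RTN4R-1 GapmeR2, where 9.56% of all genes tested were called, 1 was higher (EXOSC4 of the RNA exosome, 0.57, adjusted p = 0.00416) and 2 were lower: EFL1, a GTPase of late 60S maturation (-0.29, adjusted p = 0.00394), and RRP15 of 60S assembly (-0.22, adjusted p = 0.035). With both GapmeRs of lnc-RTN4R-1 against the controls, EXOSC4 (0.37), ZNHIT6 (-0.24) and RRP15 (-0.19) were called, against 4.66% of all genes tested. With lnc-NKX2-3-1 GapmeR1, 15 were higher and 5 lower, or 15.3% of those tested against 19.7% of all genes tested. RUVBL1, an ATPase of snoRNP assembly (-0.74, adjusted p = 0.00251), NOL9, a polynucleotide kinase of 60S rRNA processing (0.56, adjusted p = 0.000199), and NOL12 (0.54, adjusted p = 0.0369) changed most. Without the block edgeR called none with the other 5 GapmeRs, where 0 to 6 had an unadjusted p under 0.05. Of all genes tested, 2.91 to 7.55% had one. With the block, 4 were called with lnc-RTN4R-1 GapmeR1 (3.05%, against 8.8% of all genes tested) and 30 with its GapmeR2 (22.9% against 26.3%). Both together gave 11, against 15.6%. With lnc-NKX2-3-1 GapmeR1 there were 46 (35.1% against 35.8%), and with its GapmeR2 3 (2.29% against 3.17%). lnc-ASTN1-1 GapmeR1 gave 1, against 4.77%. The other 3 GapmeRs gave 0, where 5 to 13 had an unadjusted p under 0.05 (6.52 to 14.1% of all genes tested). Summed over the 8 single GapmeRs, edgeR without the block called 24 (2.29%, against 4.14% over all genes tested) and DESeq2 26. The sum with the block was 84 (8.02% against 10.3%). Between replicate numbers, 96 were lower in replicate 3 and 7 higher (78.6%, against 54.1% of all genes tested).

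The genes whose mean log2 CPM over the 10 groups was most like that of RBM28, of all tested, were SRPK1 (Pearson r = 0.998), SH3YL1 (0.987), MAP3K7 (0.981), PPA2 (0.979) and ZNHIT6 (0.977). With 10 points, of which lnc-RTN4R-1 GapmeR1 stands apart, r mainly tells which genes were low with that GapmeR alone. Their log2 fold changes with GapmeR1 were -0.845 for SRPK1, -1.17 for SH3YL1, -0.62 for MAP3K7, -0.71 for PPA2 and -0.51 for ZNHIT6, and with GapmeR2 each was between -0.01 and 0.03. GapmeR1 had a run of 12 paired bases in SH3YL1, as in 1.24% of the genes, and of 11 in the other 4, as in 5.19%. Counted by mismatches over the full length, the best site in PPA2 had 2, and 1.23% of the genes held one with as few. ZNHIT6 had 3 mismatches (13.2%), and SRPK1, SH3YL1 and MAP3K7 had 4 each (51.4%). Among the partners, DDX10 was most like RBM28 (r = 0.874, rank 47 of all genes), followed by LTV1 (0.553) and RRP9 (0.491). The median over the 45 partners was 0.152, with 2 above 0.5 and 7 below 0.

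A promoter sequence was counted that the list did not use. CACGTG, the letters that MYC with MAX is known to bind and which read the same on both strands, was searched from 250 bases before to 50 after the start of each gene in the RefSeq promoter table (GRCh38.p14). It was present in 14 of the 39 members with an entry (35.9%), in 30 of 112 other ribosome biogenesis genes (26.8%), in 9.97% of the 11056 genes tested with an entry and in 7.26% of all 35116 promoters. RBM28 was among the members without it. Of the 5 genes that fell most in replicate 3, UTP20, EBNA1BP2 and FBL held it and NHP2 and NCL did not. Of the genes higher with lnc-NKX2-3-1 GapmeR1, NOP2 held it and UBTF, NOP56, UTP15, WDR75 and TSR1 did not. Windows of 30 bases are shown for the 4 that held it, with the motif in capitals.
UTP20 (chr12:101280083-101280112, plus strand): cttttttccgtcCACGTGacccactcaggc
EBNA1BP2 (chr1:43172790-43172819, minus strand): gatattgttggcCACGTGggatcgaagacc
FBL (chr19:39846356-39846385, minus strand): tgcgctcttttcCACGTGcgaaagccccgg
NOP2 (chr12:6568242-6568271, minus strand): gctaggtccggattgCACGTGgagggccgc

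The motif began at position -10 from the annotated start in UTP20, -237 in EBNA1BP2, 6 in FBL and 35 in NOP2. The median log2 fold change in replicate 3 was -0.20 for the 14 members with the motif and -0.16 for the 25 without it, with ranges that overlapped (-0.43 to -0.06 and -0.42 to 0.00). A match of letters is no evidence that a factor was bound there.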

How the data were processed

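RNA of REH cells was sequenced in 27 samples of 10 groups. The authors aligned reads to hg38 with STAR and deposited raw counts of uniquely mapped reads per gene for each sample, unstranded and for each strand. The annotation release is not given in the sources used here. The labels describe stranded libraries depleted of ribosomal RNA and the study's methods poly-A selection. The counts of the strand that held 95.15 to 95.41% of the stranded assignments were used, and the 4 lines of unassigned reads were left out (71.5 to 77.0% of reads were assigned). Symbols and coordinates are from GENCODE v44 (GRCh38), in which 56434 of 60619 identifiers matched.

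Genes were filtered with filterByExpr (minimum count 10, minimum total 15), scaled by TMM and fitted with edgeR 4.0.16 (R 4.3.3) as 1 quasi-likelihood fit of the 10 groups with 17 residual degrees of freedom. P-values were two-sided and adjusted by Benjamini-Hochberg over the 16268 genes tested in each comparison, and called at 0.05. Controls were medium and NTC together. CPM were scaled by TMM, and 2 was the prior count on their log2 scale. The fit with the replicate block had 15 residual degrees of freedom. The study's methods state triplicates done on different days. Deviations from group means correlated at 0.263 on average between samples of the same number (109 pairs, -0.0349 to 0.505) and at -0.13 between different numbers (218 pairs). The fit with the block took samples of equal number as paired, and the fit without it did not. That equal numbers in different groups mean the same day was inferred. If cultures of a group were not independent, p-values measure only the spread between these samples. Pairs of samples within groups differed beyond sampling noise (chi-square per degree of freedom 3.21 to 15.7 in 24 pairs), so none was counted as a duplicate.

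Alternatives were DESeq2 1.42.0, another normalisation, 2 other filters, each comparison's own samples, NTC alone as control, unstranded counts, replicates 1 and 2 only, the block, and leaving out each library. The procedure was tested on simulated data that held no effect of the replicate number and changes larger than those of most partners. It therefore does not tell how well small changes, or data with a replicate effect, are handled. GapmeR pairing was searched over the spans of genes, and figures were drawn with Python 3.11.15, numpy 2.4.6 and matplotlib 3.10.9. The members and lists were chosen with earlier results of these data known. Named in each comparison were RBM28, up to 5 called members in each direction by absolute log2 fold change, the largest in each role group where none was called, the 3 largest called of the other ribosome biogenesis genes, and the 5 genes and 3 members most like RBM28. Further members are named because their call changed with the block. PWP2 was the gene of the further list that did not pass the filter.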

Additional observations from a re-analysis of the deposited data

Results flagged for a closer look

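Among the 5 controls, NTC replicate 3 stood apart in NOC3L, a factor of 60S assembly, with 16.6 CPM against 18.8 to 19.3 CPM in the other 4, and in NCL with 1120 CPM against 1390 to 1480 CPM. It was the 1 control of replicate 3. Among the 6 samples of the lnc-RTN4R-1 GapmeRs, WDR12 was lowest in GapmeR2 replicate 3, at 65.2 CPM against 70.8 to 73.6 CPM. These 3 values came from testing the 46 genes in both sets of samples, where chance alone gives about 1 in 20.

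Between both GapmeRs against lnc-NKX2-3-1, the fold changes of 9 members differed by edgeR's test of the difference itself, a comparison added after the values were seen. These were 19.6% of the list, near the 17.8% of all genes tested that were called. GNL3 was lower with GapmeR1 by a log2 fold change of -1.05 (adjusted p = 9.68e-10). Higher with GapmeR1 were NOP2 (0.371, adjusted p = 0.00497), POLR1C (0.363, 0.0119), NOP14 (0.343, 0.0177), TSR1 (0.335, 0.011), UBTF (0.316, 0.00573), NOP56 (0.283, 0.0296), WDR75 (0.253, 0.0477) and NOP58 (0.207, 0.0312). GapmeR1 had replicates 1 and 2 and GapmeR2 replicates 1 to 3, and all 9 were also called with the block. Leaving out lnc-NKX2-3-1 GapmeR1 replicate 2 left a single sample in that group, so no calls are given. The log2 fold changes were then smaller for NOP14 (0.26), NOP2 (0.251), UBTF (0.241), TSR1 (0.239) and POLR1C (0.183). In a fit of the samples compared alone 3 were called, with POLR1C, NOP14, TSR1 and UBTF among those lost (0.0504 to 0.0818).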

How the results depend on the processing

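Counts of members called moved by over 1.5 times as follows, in the order given by setting. With the replicate block they were 19 for lnc-NKX2-3-1 GapmeR1, 1 for its GapmeR2, 5 for lnc-RTN4R-1 GapmeR1, 21 for its GapmeR2, 11 for both together, 20 between both, 1 for lnc-ASTN1-1 GapmeR1 and 22 between the lnc-NKX2-3-1 GapmeRs, and the block changed the count in no other comparison. With it, the other ribosome biogenesis genes called over the 8 single GapmeRs rose from 24 (2.29%) to 84 (8.02%). Over all genes tested the share rose from 4.14% to 10.3%. With replicates 1 and 2 only, the other ribosome biogenesis genes called were 41. The members called there were 13 for lnc-NKX2-3-1 GapmeR1, 14 between both lnc-NKX2-3-1 GapmeRs, 4 for lnc-RTN4R-1 GapmeR2, 2 for both lnc-RTN4R-1 GapmeRs together and 5 between them. Without a filter on low counts, lnc-RTN4R-1 GapmeR1 gave 1, its GapmeR2 3, both together 2, and the lnc-NKX2-3-1 GapmeRs differed in 14. With at least 10 counts in every sample, lnc-RTN4R-1 GapmeR2 and both together gave 2 each. DESeq2 gave 3 for lnc-RTN4R-1 GapmeR2 and 2 for both together, with adjusted p-values that it left empty not counted. In fits of the compared samples alone, lnc-RTN4R-1 GapmeR1 gave 1, the direct contrast of its GapmeRs 1 and that of the lnc-NKX2-3-1 GapmeRs 3. With NTC alone as control, lnc-RTN4R-1 GapmeR1 gave 1 and GapmeR2 2, and unstranded counts gave 2 for GapmeR2. With the block the share of all genes tested that was called also rose, from 19.7% to 35.8% for lnc-NKX2-3-1 GapmeR1 and from 9.56% to 26.3% for lnc-RTN4R-1 GapmeR2. Under the other settings that share was not recorded, so their counts have no background beside them. In the main fit and with the block, the counts for lnc-RTN4R-1 GapmeR1, for both its GapmeRs together and between them include RBM28, whose value chose the list. The cause of these moves was not tested. Leaving out single libraries gave 1 to 2 members for lnc-RTN4R-1 GapmeR1, for its GapmeR2 and for both together. It gave 1 to 3 between them and 39 to 41 between replicate numbers. For lnc-NKX2-3-1 GapmeR1 some of these fits left a single sample, so only the median of the list is given. It ran from 0.04 to 0.19 against the controls and from 0.10 to 0.27 against GapmeR2. The log2 fold change of RBM28 with both lnc-RTN4R-1 GapmeRs together ran from -1.21 to -0.79, and with GapmeR1 alone from -2.03 to -1.93. No direction of a called value reversed.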
